A study of Mus musculus with 12 samples.

Results

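The genes described here are 10 named genes of the p53 response and of the GADD45 family, followed across a dTAG13 dose series in mouse embryonic stem (mES) cells. They are Gadd45a, Gadd45b, Gadd45g, Cdkn1a, Mdm2, Ccng1, Phlda3, Trp53inp1, Sesn2 and Bbc3, matched by symbol in a count table of 24421 genes. All 10 were found, and all 10 reached a mean of 1 RPKM over the libraries, the limit that 11378 genes met. RPKM are reads per kilobase of exon, scaled to the size of the library. Gadd45g met it with a mean of 1.02 RPKM, which it owed to the treated libraries. The genes were chosen by name with the difference between 100 and 0 nM in view, Gadd45g for the size of its change there, so that comparison is described for them and no p-value is given. The tests of these genes compare the middle doses.

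The cells were mES cells of strain B6, grown in 2i+LIF medium, in which both treated and control cells carried a Brg1 dTag knock-in. The knock-in fuses a degron to BRG1, the main ATPase of the SWI/SNF chromatin remodelers in these cells, and the line came from a picked single-cell colony. dTAG13 brings the fusion protein to the proteasome. Treatment lasted 24 h, at doses of 0, 0.3, 1, 3, 10 and 100 nM dTAG13. Each dose had 2 libraries of total RNA, 12 in all. The 0, 1, 10 and 100 nM libraries carry 1 run of label numbers and the 0.3 and 3 nM libraries another, and nothing in the labels says whether these mark separate cultures or sequencing batches, so p-values measure the spread between these libraries. Counts in genes ranged from 4663484 to 6375582 per library, with 10.5% to 19.4% of them in the ribosomal RNA gene Rn45s. All 8 mES cell markers were expressed, with a summed level of 1829 to 2141 RPKM, against 27.2 to 32.2 RPKM for 8 trophoblast markers, 3.56 to 7.23 RPKM for 8 fibroblast markers and 3.66 to 6.60 RPKM for 8 primitive endoderm markers. Of the trophoblast markers 6 had a mean of at least 1 RPKM, with Elf5 and Hand1 below it. Smarca4, the gene that encodes BRG1, checks nothing here because dTAG13 acts on the protein, and its mean level was 63.9 RPKM at 0 nM and 71.3 RPKM at 100 nM.

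The transcription factor p53 is held at a low level by the ubiquitin ligase MDM2 and is freed by DNA damage and other stress. Freed p53 activates genes that stop the cell cycle, such as Cdkn1a, genes that promote cell death, such as Bbc3, and Mdm2 itself, which closes a feedback loop. GADD45 proteins are small stress sensors that bind cell cycle and DNA repair proteins and the kinase MAP3K4, and each of the 3 genes answers to partly different signals. In mES cells p53 is abundant, and its activation is known to favour differentiation.

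Gadd45g was at the edge of detection without dTAG13 and had low counts at each dose. Its counts were 0 and 1 without dTAG13. The 0.3 nM libraries held 2 and 6 counts, the 1 nM libraries 5 and 12, and the 3 nM libraries 8 and 10. The 10 nM libraries held 9 and 4 and the 100 nM libraries 10 and 11. Every treated library stood above both control libraries. In RPKM the 0.3 and 10 nM libraries lay below those at 3 and 100 nM, and the 1 nM libraries overlapped with every other treated dose. Set against library size, the 21 counts at 100 nM were 20.7 times the single count at 0 nM, with a 95% exact binomial interval of 3.33 to 855. These intervals cover counting error only, and they describe the change for which the gene was chosen and do not test it. The ratio was 8.42 at 0.3 nM, with an interval of 1.13 to 374, and 20.4 at 3 nM, with an interval of 3.22 to 851. The 0.3 and 3 nM libraries carry another run of label numbers than the controls, and its part in these ratios was not tested. From the lowest dose to the highest, its mean levels were 0.0753, 0.651, 1.31, 1.58, 1.01 and 1.60 RPKM. The size of each ratio rests on the 1 control count, and the 10 treated libraries had 2 to 12 counts each.

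The other GADD45 genes were expressed at higher levels throughout and did not follow Gadd45g. Gadd45a, the family member best known as a p53 target, had 10.4 and 10.7 RPKM at 0 nM and 7.61 and 8.66 RPKM at 100 nM, with no overlap. Its log2 fold change against 0 nM lay between -0.43 (SE 0.20) at 3 nM and -0.16 (SE 0.19) at 10 nM, and all 10 treated libraries lay below both controls. All doses share these control libraries, so the differences are not independent of each other. Part of its exons, 238 bases, overlap E230016M11Rik on the opposite strand, and reads there could not be given to either gene by a count that ignores strand. Gadd45b, which answers to NF-kB and TGF-beta signals, had 14.5 and 16.1 RPKM at 0 nM and 10.5 and 15.3 RPKM at 100 nM, which overlapped. The summed level of the 3 genes was 25.9 ± 1.00 RPKM (SD, n = 2) at 0 nM and 22.6 ± 4.07 RPKM at 100 nM. Within that sum the share of Gadd45g went from 0.291% to 7.07%, and Gadd45b held 57.0% to 60.7% at every dose.

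The 3 GADD45 promoters are shown because the family members differed in their course with dose. RefSeq windows on GRCm38.p6, the assembly of mm10, were matched for 9 of the 10 genes, all but Trp53inp1, with 12 starts, each from 250 bases before to 50 after the start. The lines below give the 150 bases before the start, 5′ to 3′ on the gene's strand, for Gadd45a (chr6:67037408-67037557, minus strand), Gadd45b (chr10:80929941-80930090, plus strand) and Gadd45g (chr13:51846525-51846674, plus strand). Capitals mark CCAAT, the octamer ATGCAAAT, TATAAA and CACGTG on either strand.
Gadd45a: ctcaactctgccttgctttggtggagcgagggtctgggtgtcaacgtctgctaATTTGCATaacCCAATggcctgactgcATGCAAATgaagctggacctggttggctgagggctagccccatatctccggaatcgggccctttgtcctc
Gadd45b: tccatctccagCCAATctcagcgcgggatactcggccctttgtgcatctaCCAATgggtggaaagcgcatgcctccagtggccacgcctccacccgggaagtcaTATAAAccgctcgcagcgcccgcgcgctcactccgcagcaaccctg
Gadd45g: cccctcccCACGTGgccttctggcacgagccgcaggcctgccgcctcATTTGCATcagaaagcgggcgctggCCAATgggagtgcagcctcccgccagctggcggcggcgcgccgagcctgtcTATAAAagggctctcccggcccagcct
The octamer, the sequence read by POU factors such as OCT4, was found 2 times before Gadd45a and 1 time before Gadd45g and not in the Gadd45b window, and 1.74% of 32841 promoter windows hold it. TATAAA was found before Gadd45b and Gadd45g, against 13.6% of all windows, and CACGTG in the windows of the same genes, against 7.15%. CCAAT was found in all 3, against 37.4%. These are letter matches and not measured binding sites.

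**Figure D1:**
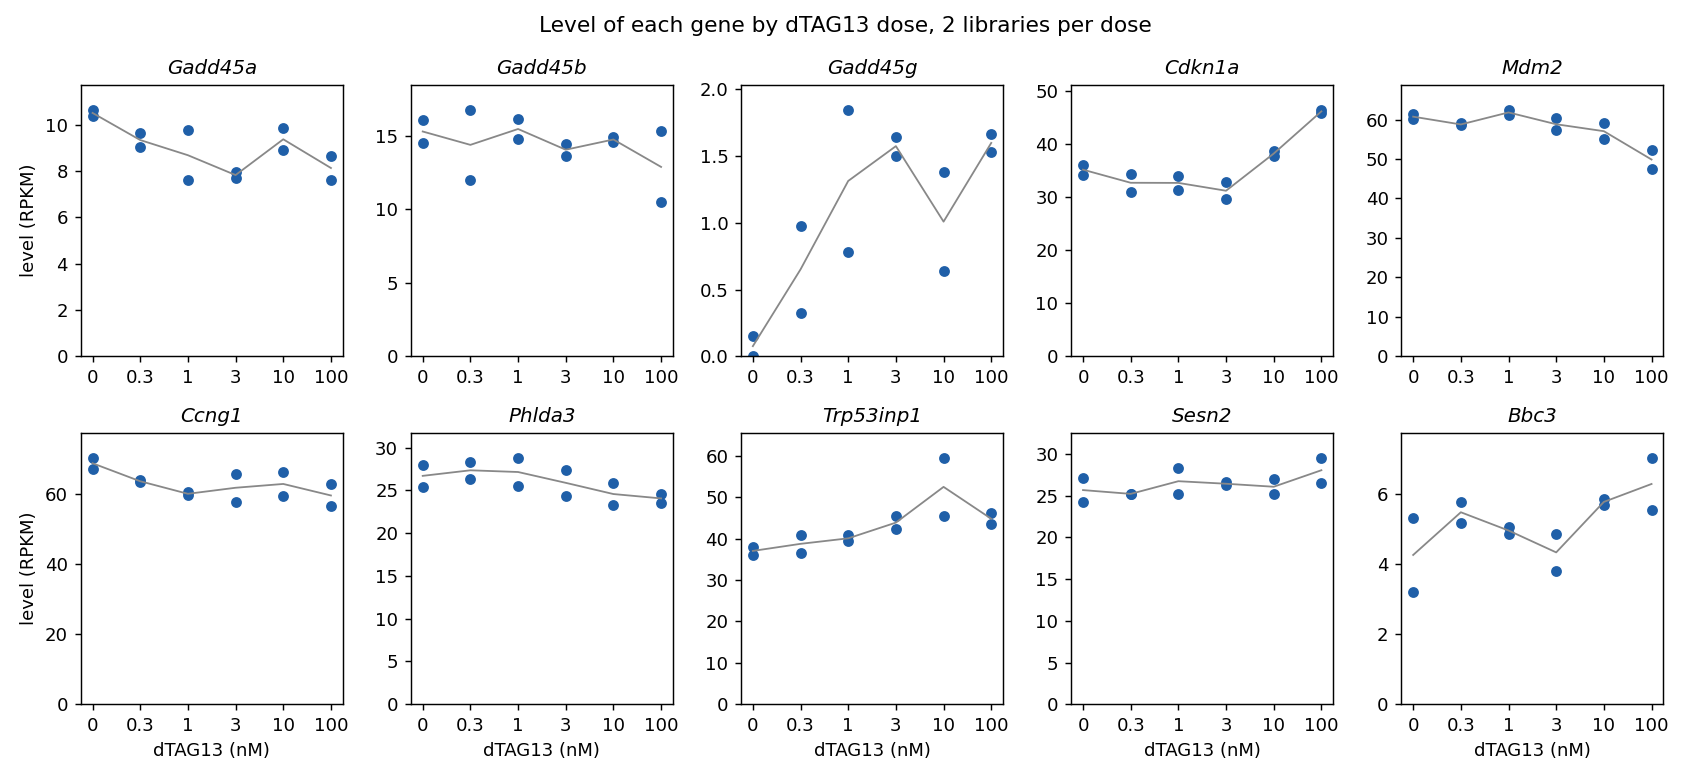
Level of each of the 10 genes in RPKM (vertical axes, each from 0 with its own scale) by dTAG13 dose in nM (horizontal axes, equal steps). Points are libraries, 2 per dose, and the line joins their means. Gadd45g is at 0 to 0.151 RPKM without dTAG13 and at 0.327 to 1.85 RPKM with it, and Cdkn1a is highest at 100 nM with 45.8 and 46.4 RPKM.

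Among the cell cycle genes, Cdkn1a was higher at the top dose and Ccng1 was lower. Cdkn1a encodes p21, the inhibitor of cyclin-dependent kinases through which p53 arrests the cell cycle. Its level was 34.2 and 36.1 RPKM without dTAG13. The 0.3 nM libraries had 30.9 and 34.4 RPKM, the 1 nM libraries 31.3 and 33.9, and the 3 nM libraries 29.6 and 32.7. The 10 nM libraries had 37.6 and 38.7 RPKM and the 100 nM libraries 45.8 and 46.4. The libraries of the 3 low doses overlapped with the control or lay below it, and those of the 2 high doses lay above every other library, those at 100 nM above those at 10 nM. The log2 fold change against 0 nM was -0.17 (SE 0.09) at 3 nM, 0.12 (SE 0.09) at 10 nM and 0.39 (SE 0.09) at 100 nM, where the ratio of means was 1.31. Ccng1, which encodes cyclin G1, a p53 target that acts back on MDM2, was the most abundant of the 10 genes per length at 0 nM. It had 67.1 and 70.3 RPKM at 0 nM, and every treated library was lower, between 56.4 and 66.3 RPKM. Its log2 fold change was -0.21 (SE 0.07) at 100 nM and already -0.20 (SE 0.07) at 1 nM. All doses were compared with the same 2 control libraries, so these differences are not independent of each other. Between treated doses Ccng1 changed by 0.07 (SE 0.07) from 1 to 10 nM and by -0.04 (SE 0.07) from 0.3 to 3 nM.

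Cdkn1a and Ccng1 are also the genes whose promoter windows hold the closest matches to the full p53 consensus, 2 half-sites without a spacer. Each match differs from the consensus at 1 of 20 bases, which 0.0883% of all windows reach. The Cdkn1a match lies before the upstream of its 2 starts, at chr17:29090928-29090947 (plus strand), and is shown in capitals within 100 bases of chr17:29090888-29090987. The Ccng1 match lies at chr11:40755462-40755481 (minus strand).
Cdkn1a: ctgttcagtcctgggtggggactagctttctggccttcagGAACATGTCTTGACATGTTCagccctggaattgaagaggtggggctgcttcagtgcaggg
Ccng1: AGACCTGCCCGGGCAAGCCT
Among the other genes, the closest match differed at 3 bases for Gadd45a and Bbc3, as in 6.29% of windows, at 4 for Gadd45g (30.2%), and at 5 for Gadd45b, Mdm2, Phlda3 and Sesn2 (76.6%). For Bbc3, with 3 windows, and Cdkn1a, with 2, the best window was taken, whereas the shares count single windows. The windows leave out introns and distal sites, where p53 sites of Mdm2 are known to lie.

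Of the feedback and signalling targets, Mdm2 had its lowest levels at 100 nM, and Trp53inp1 had higher levels there than in the controls. Mdm2 had 60.1 and 61.3 RPKM without dTAG13. The 0.3 nM libraries had 58.5 and 59.0 RPKM, the 1 nM libraries 61.1 and 62.5, and the 3 nM libraries 57.3 and 60.3. The 10 nM libraries had 55.0 and 59.1 RPKM and the 100 nM libraries 47.6 and 52.2. The libraries at 100 nM were the 2 lowest of the 12, and the log2 fold change against 0 nM was -0.28 (SE 0.07), against 0.03 (SE 0.07) at 1 nM. Phlda3, a repressor of AKT, had 25.4 and 28.0 RPKM at 0 nM and 23.5 and 24.6 RPKM at 100 nM (log2 fold change -0.15, SE 0.11), a difference little larger than its SE. Trp53inp1 encodes a stress protein that acts in autophagy and cell death. Its level was 36.2 and 37.9 RPKM without dTAG13. The 0.3 nM libraries had 36.5 and 41.0 RPKM, the 1 nM libraries 39.3 and 40.8, and the 3 nM libraries 42.4 and 45.4. The 10 nM libraries had 45.4 and 59.6 RPKM and the 100 nM libraries 43.4 and 46.2. All libraries from 1 nM up lay above the controls, and the highest, the replicate 2 library at 10 nM, stood well apart from the rest. The log2 fold change against 0 nM was 0.24 (SE 0.09) at 3 nM, 0.50 (SE 0.09) at 10 nM and 0.27 (SE 0.09) at 100 nM.

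The death and stress genes Bbc3 and Sesn2 moved less clearly. Bbc3 encodes PUMA, a protein that opens the way to apoptosis at mitochondria. The controls had 3.21 and 5.30 RPKM, the 10 nM libraries 5.68 and 5.86, and the 100 nM libraries 5.53 and 7.03, from 39 to 85 counts. The control libraries differed from each other by more than the higher of them differed from the 10 nM libraries. Its log2 fold change at 100 nM was 0.57 (SE 0.23), and it ranged from 0.24 without the replicate 2 library at 0 nM to 0.97 without the replicate 1 library. Sesn2, which restrains mTORC1 when amino acids are short, had 24.2 to 29.6 RPKM over all 12 libraries, and its log2 fold change at 100 nM was 0.13 (SE 0.09).

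A gene was called where it passed both a Benjamini-Hochberg adjusted p under 0.05 and more than 1.5-fold. At 100 against 0 nM 4.37% of all tested genes were called higher and 6.83% lower, and 23.4% passed without the fold minimum. Of the 10 genes Gadd45g was the 1 called, and since it was chosen for this difference and reached the level limit through the treated libraries, nothing is read from that count. The median log2 fold change of the 10 genes was -0.011, against 0 over all tested genes, with 5 genes above and 5 below 0. The summed level of 8 germ layer markers went from 10.7 and 11.5 RPKM at 0 nM to 18.1 and 18.7 RPKM at 100 nM, with Pax6, Mesp1, Fgf5 and Otx2 under 1 RPKM in every library. The mES cell markers went from 2060 and 2081 RPKM to 1829 and 1872 RPKM. Their part in the levels above was not tested, and in bulk RNA a change in the mix of cells and a change in RNA per cell cannot be told apart.

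**Figure D2:**
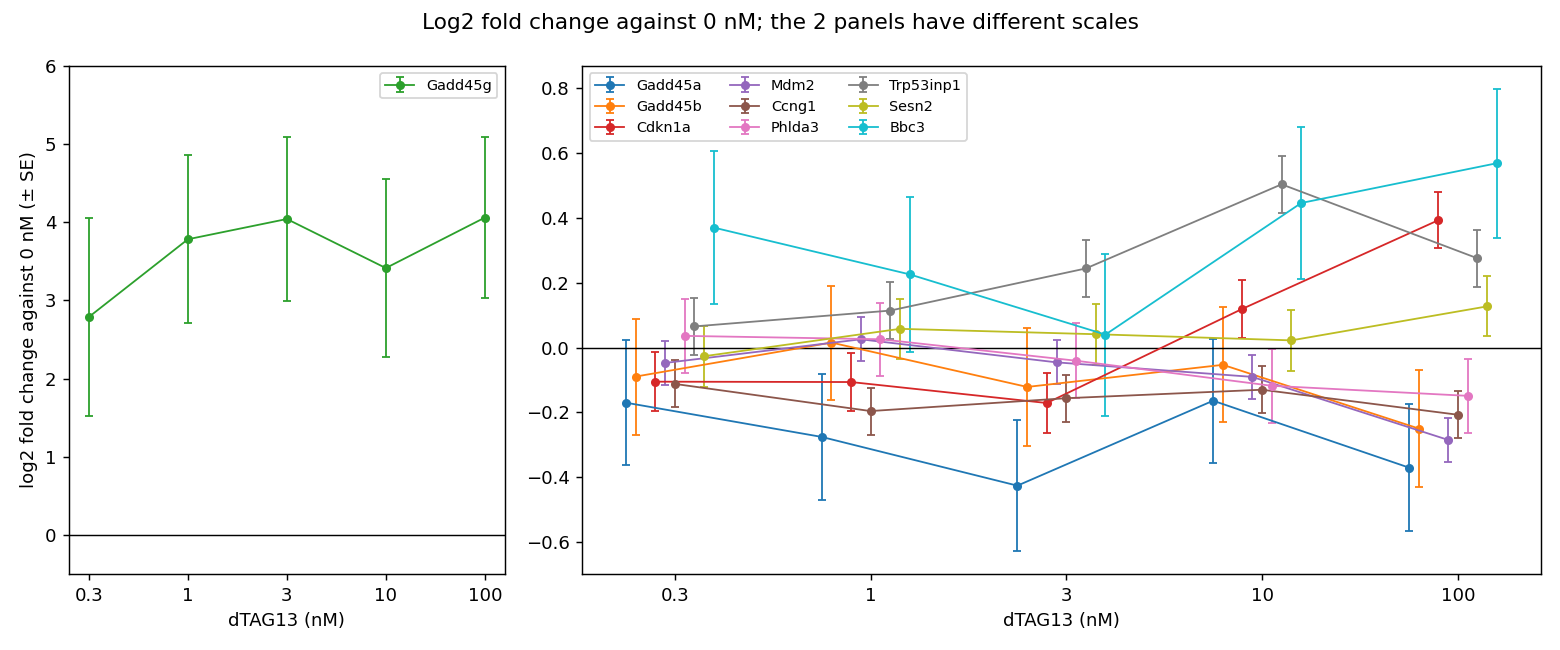
Log2 fold change against 0 nM (vertical axes, points with SE bars) by dTAG13 dose in nM (horizontal axes, equal steps), with Gadd45g in a panel of its own scale. The 5 doses share the 2 control libraries. Gadd45g lies above the others at each dose, and its fitted values depend on the prior count because the controls hold 1 count; Cdkn1a goes from -0.17 at 3 nM to 0.39 at 100 nM.

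Dose was also examined in a pair of equal steps, from 1 to 10 nM and from 0.3 to 3 nM. The genes were chosen with earlier results of these data known, so the p-values of these steps may not be independent of that choice. Each step lies within 1 run of label numbers, and neither compares a 0 or 100 nM library, although all 12 libraries share in the scaling and in the estimate of the spread. Trp53inp1 was higher at the upper dose in both, and it was the 1 gene of the 10 with an adjusted p under 0.05 by edgeR's quasi-likelihood test. From 1 to 10 nM its log2 fold change was 0.39 (SE 0.09, adjusted p = 0.00595), or 1.31-fold. From 0.3 to 3 nM it was 0.18 (SE 0.09, adjusted p = 0.281). Its libraries did not overlap there, nor did those of Gadd45g and Sesn2 (higher) or of Gadd45a and Bbc3 (lower). Such gaps between 2 and 2 libraries are given without their share over all tested genes, so nothing is read from them. The mean of the steps for Trp53inp1 was 0.28 (SE 0.06, adjusted p = 0.00257). The step from 1 to 10 nM leaned on the replicate 2 library at 10 nM, without which it was 0.18 (adjusted p = 0.259), and it was 0.36 (adjusted p = 0.0934) without the replicate 2 library at 1 nM. DESeq2 gave it an adjusted p of 0.0637. The mean of the steps stayed past the threshold without any 1 of the 8 libraries, with log2 fold changes of 0.18 to 0.37, and in DESeq2 (adjusted p = 0.0303). With the spread estimated from the compared libraries alone, the step from 1 to 10 nM had an adjusted p of 0.0414 and the mean step one of 0.00854.

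None of the 10 genes passed both limits in the step from 1 to 10 nM, against 2.54% of all tested genes, and Trp53inp1 alone passed without the fold minimum, against 6.27%. Cdkn1a was also higher there, with a log2 fold change of 0.23 (SE 0.09, 95% interval 0.04 to 0.41) and an adjusted p of 0.153. Its libraries did not overlap, nor did those of Trp53inp1 and Bbc3 (higher) or of Mdm2 (lower). These gaps too are given without their share over all tested genes, and nothing is read from them. Of the 10 genes 2, Trp53inp1 and Cdkn1a, had an unadjusted p under 0.05. No share of all tested genes is given at that limit, so nothing is read from this count or the same counts below. In the step from 0.3 to 3 nM none passed either limit, against 1.94% with and 5.31% without the fold minimum, and 0 of the 10 had an unadjusted p under 0.05. There the log2 fold change of Cdkn1a was -0.07 (SE 0.09), with an interval of -0.26 to 0.13. Gadd45g had a log2 fold change of 1.25 (SE 0.70, adjusted p = 0.355) in that step and of -0.37 (SE 0.64, adjusted p = 0.819) from 1 to 10 nM. With 2 to 12 counts a library, intervals of -0.19 to 2.69 and -1.68 to 0.95 include changes in either direction.

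Averaged over both steps, 0 of the 10 passed both limits, against 2.93% of all tested genes, and 1 passed without the fold minimum, against 13.1%; DESeq2 and the likelihood ratio test also gave 0 past both limits here and in each single step, and 1 gene had an unadjusted p under 0.05. Apart from Gadd45g and Trp53inp1, the mean steps lay between -0.11 for Phlda3 (SE 0.08) and 0.08 for Cdkn1a (SE 0.06). The steps did not differ detectably from each other for any of the 10 genes, the smallest adjusted p being 0.679 for Cdkn1a, against 0.0703% of all genes past the threshold. By edgeR 1 gene, Cdkn1a, had an unadjusted p under 0.05, and DESeq2 also gave 0 genes past the threshold.

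**Figure D3:**
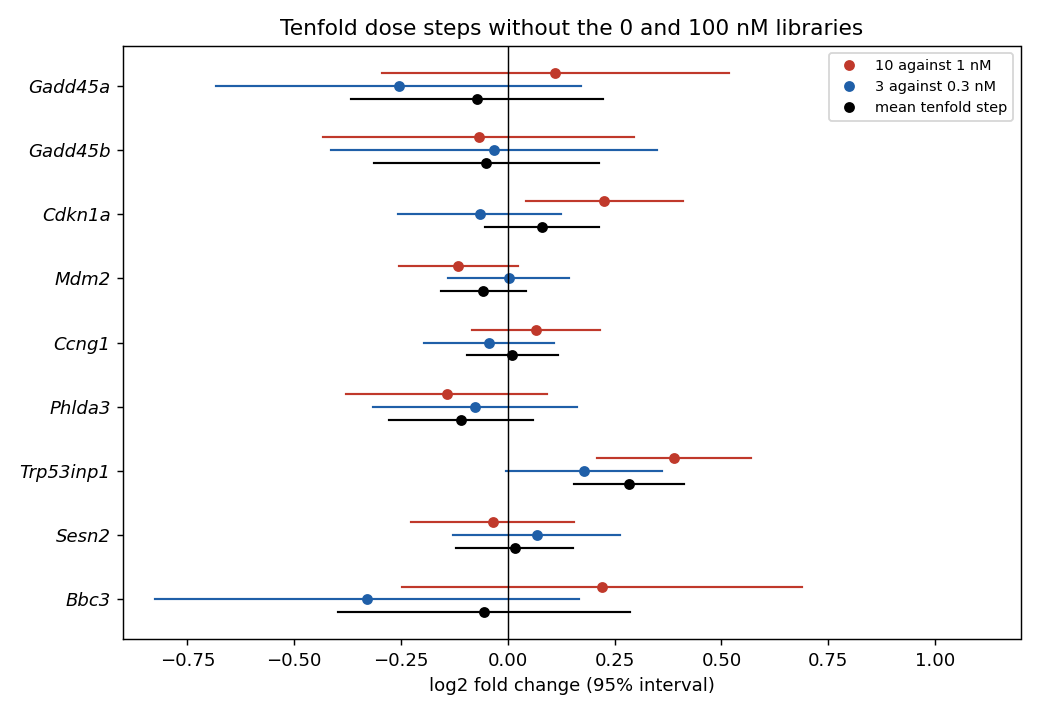
Log2 fold change (horizontal axis) of 9 genes over the steps from 1 to 10 nM (red), 0.3 to 3 nM (blue) and their mean (black), with 95% intervals as lines. Gadd45g is left out for its wider intervals. Of the black intervals, that of Trp53inp1, 0.16 to 0.41, is the one that lies apart from 0. The red intervals of Trp53inp1, 0.21 to 0.57, and of Cdkn1a, 0.04 to 0.41, also lie apart from 0.

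Per length, the order of the genes at 0 nM ran from Ccng1 (68.7 RPKM) and Mdm2 (60.7) through Trp53inp1 (37.0), Cdkn1a (35.1), Phlda3 (26.7), Sesn2 (25.7), Gadd45b (15.3), Gadd45a (10.5) and Bbc3 (4.26) to Gadd45g (0.0753). Phlda3 and Sesn2 were the neighbours whose libraries overlapped. At 100 nM the order changed in that Cdkn1a (46.1 RPKM) stood above Trp53inp1 (44.8) and Sesn2 (28.1) above Phlda3 (24.1). The libraries of Cdkn1a and Trp53inp1 overlapped there, and no other neighbours did. Over the 12 libraries the genes most like Gadd45g in log2(RPKM + 0.1), among genes whose mean reached 5 RPKM, were Pcbp4 (Pearson r 0.93), Isy1 (0.93) and Mkrn1 (0.92). For Cdkn1a they were Stk38 (0.95), Pdlim5 (0.93) and Vim (0.92). They were the highest of 7687 and 7686 genes, across libraries that share doses, and are given as a description.

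Among other p53 targets the death and junction gene Perp was furthest down. Of 44 other p53 targets, 40 were tested, and at 100 against 0 nM 2 were higher, 5 were lower and 33 did not pass both limits, where 4.37% of all tested genes were higher and 6.83% lower. The median log2 fold change was 0.08, against 0 over all genes. Here and in the next lists, most named genes were picked for the size of this change. The lists were chosen with earlier results of these data known. The adjusted p of the picked genes therefore describe the change and are not an independent test of it. Perp, a membrane protein of desmosomes that also takes part in p53-dependent death, fell from 6.69 and 8.22 RPKM to 1.72 and 2.70 RPKM (log2 fold change -1.75, SE 0.27, adjusted p = 2.0e-05). Trp53i11 fell by 1.46 on the log2 scale (SE 0.28, adjusted p = 0.000262). Btg2, an antiproliferative cofactor of mRNA decay, and Ak1, an adenylate kinase, fell by 0.88 (SE 0.14, adjusted p = 2.0e-05) and 0.83 (SE 0.11, adjusted p = 2.8e-06). Pmaip1, which encodes the death protein NOXA, rose from 37.1 and 39.0 RPKM to 58.0 and 59.4 RPKM (log2 fold change 0.62, SE 0.08, adjusted p = 9.7e-07), and Aen, an apoptosis nuclease, rose by 0.80 (SE 0.13, adjusted p = 6.2e-05). The change of Pmaip1 was 0.55, under the fold minimum, with scaling factors taken over all rows of the table. Aen and the remaining lower gene, Ei24, lie outside the 4 largest changes and were named after their values were seen. At 10 nM Perp already had 2.52 and 4.64 RPKM and Pmaip1 53.2 and 57.3 RPKM.

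Of the genes that control p53, Trp53bp1 changed most. Of 20 regulators 19 were tested, 1 was higher and none was lower past both limits, against 4.37% and 6.83% of all tested genes, and the median log2 fold change was 0.13. Trp53bp1, which encodes the repair factor 53BP1, was higher on average at each dose than at the one before and rose from 5.24 and 5.76 RPKM at 0 nM to 9.43 and 10.1 RPKM at 100 nM (log2 fold change 0.83, SE 0.09, adjusted p = 2.5e-07). Without the fold minimum 9 of the 19 passed, 6 higher and 3 lower, against 23.4% of all tested genes. Trp53, which encodes p53, was 144 and 150 RPKM at 0 nM and 121 and 133 RPKM at 100 nM (log2 fold change -0.20, SE 0.07, adjusted p = 0.0349), and its mean over the steps from 1 to 10 and 0.3 to 3 nM was -0.20 (SE 0.05, adjusted p = 0.00754). The value at 100 nM missed the threshold in DESeq2 (adjusted p = 0.0801), with upper quartile factors (0.0543), without factors (0.271) and without any 1 of 3 of the 4 libraries (0.0719 to 0.32), all but the replicate 1 library at 100 nM, and the mean step missed it without factors (0.183). Mdm4, the partner of MDM2, was lower at 100 nM (log2 fold change -0.26, SE 0.07, adjusted p = 0.00865), and had means of 20.9 to 21.8 RPKM from 0 to 10 nM and 17.8 RPKM at 100 nM. Its value missed the threshold without scaling factors (adjusted p = 0.101), without the replicate 1 library at 0 nM (0.13) and without the replicate 2 library at 100 nM (0.0863).

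**Figure D4:**
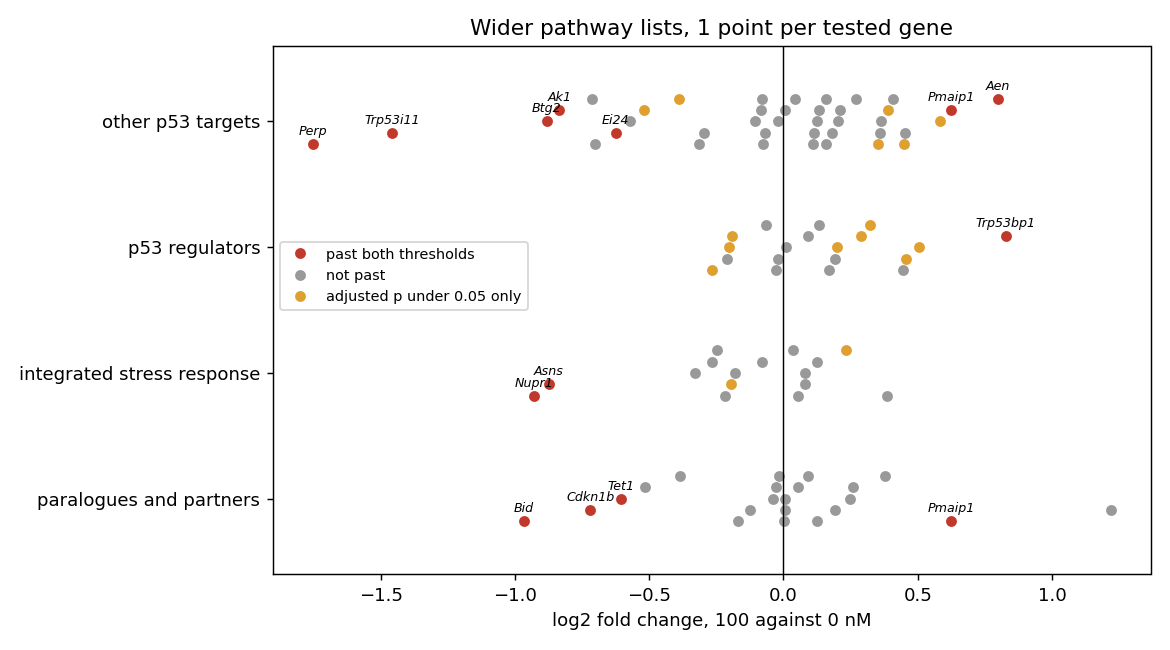
Log2 fold change at 100 against 0 nM (horizontal axis) of each tested gene of 4 pathway lists (rows, with vertical offsets only to separate points). Red points passed both limits and are named, yellow points passed the adjusted p only, and grey points passed neither. Perp is lowest at -1.75, and Pmaip1 belongs to 2 of the lists.

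At 100 against 0 nM no tested gene of the integrated stress response was higher past both limits. This is the ATF4 pathway, which can also raise Sesn2 and Gadd45a. Of 20 genes 16 were tested, and past both limits none was higher and 2 were lower, against 4.37% and 6.83% of all tested genes. The median log2 fold change was -0.13. Without the fold minimum 1 was higher and 3 were lower, where 23.4% of all tested genes passed. Asns, asparagine synthetase, fell from 217 and 219 RPKM at 0 nM through 143 and 146 RPKM at 10 nM to 118 and 120 RPKM at 100 nM (log2 fold change -0.87, SE 0.06, adjusted p = 1.3e-11). Nupr1, a stress-induced nuclear protein, fell by 0.93 (SE 0.20, adjusted p = 0.00117).

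Of 29 paralogues and partners of the 10 genes, 22 were tested, 1 was higher (Pmaip1, also a p53 target) and 3 were lower past both limits, against 4.37% and 6.83% of all tested genes, with a median log2 fold change of 0.0026. Bid, a death agonist of the BCL2 family like PUMA, fell from 31.0 and 32.3 RPKM to 15.7 and 16.7 RPKM (log2 fold change -0.97, SE 0.11, adjusted p = 2.1e-07). Cdkn1b, the p27 paralogue of Cdkn1a, fell by 0.72 (SE 0.16, adjusted p = 0.00125), whereas Cdkn1a was higher. Tet1, which with GADD45 proteins takes part in DNA demethylation, fell by 0.60 (SE 0.05, adjusted p = 7.8e-10), and without the replicate 1 library at 100 nM its change was -0.57, under the fold minimum, as was -0.56 without scaling factors. Pcna, Cdk1 and Ccnb1, whose products bind GADD45 proteins and which were named after their values were seen, had log2 fold changes of 0.01 (SE 0.07), -0.02 (SE 0.08) and -0.12 (SE 0.07). Phlda1, a paralogue of Phlda3 named after its values were seen, had 12.8 and 15.1 RPKM without dTAG13. The 1 nM libraries had 25.4 and 27.2 RPKM, the 3 nM libraries 29.2 and 37.4, and the 10 nM libraries 31.0 and 31.5. In the 100 nM libraries it was back to 12.4 and 15.6 RPKM. Its mean dose step was 0.60 (SE 0.09, adjusted p = 6.5e-05), while its log2 fold change at 100 against 0 nM was 0.0011 (SE 0.15, adjusted p = 0.999).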

How the data were processed

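The authors trimmed paired-end reads of stranded total RNA libraries (SMART-Seq) with Trim Galore, aligned them with HISAT2 to mm10 and deposited raw gene counts from featureCounts 2.0.1, made without strand. Reads shared by overlapping genes or mapped to several places were not counted. Levels here are RPKM on the exon lengths of the deposited table. Genes that reached a mean of 1 RPKM were fitted in 1 model of 6 doses with edgeR 4.0.16 (R 4.3.3; TMM factors 0.948 to 1.06 over the tested genes, quasi-likelihood test), p-values adjusted by Benjamini and Hochberg's method over 11378 genes and a call at adjusted p under 0.05 and fold change over 1.5. The study's methods used edgeR's likelihood ratio test, which was an alternative here, as was DESeq2 1.42.0. The members and lists were chosen with earlier results of these data known. Besides the 10 genes, the text names Trp53, Mdm4, Smarca4 and the 4 called genes with the largest change per list. The fit was tested on simulated counts. Replicate numbers did not pair the libraries: the deviations of same-numbered libraries correlated at -0.09 to 0.09 over 15 pairs of doses. Dglucy and Cop1 were matched under the symbols 9030617O03Rik and Rfwd2. The biological coefficient of variation was 6.20%.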

Additional observations from a re-analysis of the deposited data

How the results depend on the processing

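At 100 against 0 nM the count of called genes among the 10 went from 1 to 0 with a limit of 5 RPKM, which leaves Gadd45g out, and to 5 without the fold minimum. That last count was 3 in DESeq2, 3 without normalization factors, 3 without either library at 0 nM, and 2 and 4 without the replicate 1 and 2 library at 100 nM. Without the replicate 1 library at 0 nM, Bbc3 (log2 fold change 0.97) was called with the fold minimum in place of Gadd45g (3.25). Nothing is read from these counts. Without the fold minimum the count was 1 from 1 to 10 nM and 1 for the mean step, and 13 of 40 other p53 targets, 9 of 19 p53 regulators, 4 of 16 integrated stress response genes and 4 of 22 paralogues and partners passed at 100 nM, against 23.4% of all genes. Leaving out 1 library gave 1 to 2 called p53 regulators. Some step values changed sign, none with an adjusted p under 0.05. Not all of these were near 0, as the ranges of Gadd45g, Gadd45a and Gadd45b below show. Without normalization factors Sesn2 was 0.0282 from 1 to 10 nM. With genes of at least 1 count, Mdm2 was -0.0446 from 0.3 to 3 nM, and the mean steps of Ccng1 and Sesn2 were -0.0302 and -0.0251. With TMM factors over all rows, an alternative chosen after seeing the data, these were -0.0429, -0.0279 and -0.0228, and that scaling moved the calls over all genes at 100 against 0 nM from 497 higher and 777 lower (39.0% higher) to 394 and 943 (29.5%). Without normalization factors they were 575 and 665 (46.4%). Leaving out 1 library in turn, the steps from 1 to 10 nM ranged from -0.0594 to 0.301 for Gadd45a, -1.02 to 0.372 for Gadd45g, -0.0147 to 0.147 for Ccng1 and -0.119 to 0.0494 for Sesn2. From 0.3 to 3 nM they ranged from -0.254 to 0.226 for Gadd45b, -0.146 to 0.00816 for Cdkn1a, -0.0386 to 0.0414 for Mdm2, -0.136 to 0.0459 for Ccng1 and -0.17 to 0.0067 for Phlda3. The mean steps ranged from -0.16 to 0.0225 for Gadd45a, -0.161 to 0.079 for Gadd45b, -0.0338 to 0.0561 for Ccng1, -0.028 to 0.0586 for Sesn2 and -0.154 to 0.0273 for Bbc3. With the replicate number as a block, 1 of the 10 genes was called at 100 against 0 nM and the mean step of Trp53inp1 was 0.282 (adjusted p = 0.00367); the block changed no call. For the 30 step values of the 10 genes, 426 of the alternative values kept direction and call, 28 changed sign and 3, all for Trp53inp1 from 1 to 10 nM, lost the threshold. The causes were not tested. With 4663484 to 6375582 counts a library, Gadd45g rests on 0 to 12 counts.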

Other observations

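Of the list genes, 16 fell under the level limit and were fitted with all genes that had a count. Their log2 fold changes at 100 against 0 nM ran from -0.51 for Tdg to 2.73 for Cd82, with 9 above and 7 below 0, and 1 had an adjusted p under 0.05. Cd82, a p53 target and tetraspanin with at most 12 counts in a library, was that gene (adjusted p = 0.016). The share of all genes past the threshold in that fit is not given, so nothing is read from this count. Steap3, a p53-induced iron reductase named after its values were seen, had 2.22 ± 0.382 RPKM (SD, n = 2) at 0 nM, 0.775 ± 0.212 RPKM with 10 nM and 1.35 ± 0.0121 RPKM with 100 nM dTAG13. Its mean over the steps from 1 to 10 and 0.3 to 3 nM was -1.01 (SE 0.26, adjusted p = 0.00927), and its log2 fold change at 100 against 0 nM was -0.71 (SE 0.31, adjusted p = 0.101). Like Phlda1, it thus differed most from the control at a middle dose, and whether its 100 nM level differs from that at 10 nM was not tested.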
